A study of Lathyrus oleraceus subsp. biflorus and Lathyrus oleraceus and [Pisum sativum] subsp. abyssinicum with 117 samples.

Results

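The genes described here are 100 pea genes whose mean transcript level in the seed coat was higher at the stage D2 than at any other of 5 developmental stages, and above that of the embryo. They were taken from a table of 59594 features, 31857 of which carry identifiers beginning with Psat, the gene series of the cultivar Cameor reference. They were chosen by their measured mean log2(CPM + 1), where CPM is the read count scaled to a common library total, averaged over Cameor, JI92, JI1794 and PI358617. A gene qualified when its highest seed coat mean was at D2, was at most 9 and lay at least 1 above its highest embryo mean at D2 to D5. Of 1396 features that met these conditions, the 100 with the largest margin of D2 over the next highest seed coat stage were kept.

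RNA sequencing was carried out on 67 seed coat and 50 embryo libraries of glasshouse-grown, untreated pea plants. The groups differ in tissue, accession, stage and, for 11 seed coat libraries of JI64 and JI92, in the year 2017 given in their labels. JI64, JI261 and JI1794 are wild peas (Pisum elatius), Cameor is a cultivar and JI92 a landrace of domesticated pea (P. sativum), and PI358617 is an Ethiopian pea (P. abyssinicum). Of 60 groups, 57 hold 2 libraries and 3 hold 1 library. Whether libraries of the same group come from separate plants is not in the labels, so that the p-values measure the spread between these libraries, which may be technical. The labels number the stages and give no days after flowering.

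The seed coat develops from the maternal outer layers of the ovule and surrounds an embryo that is genetically a new generation. In legumes its outer cell layers lay down thick walls, pigments and phenolic compounds as the seed grows, and its inner layers pass sugars and amino acids on to the embryo. Wild peas shed hard seeds whose coat keeps water out, a form of dormancy that was largely lost in domesticated peas. The identifiers in the tables are not paired with gene names, and none of them matched the 65673 genes of the RefSeq annotation of another pea assembly, so that no function is given for any gene below.

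The rule used 70 libraries. The other 47 were not used, and 43 of them, from JI64, the 2017 series of JI64 and JI92, and JI261, carry all the tests below. Library totals ran from 57.0 to 104 M counts, with a median of 66.1 M. A list of 300 other seed coat features took 4.02% to 17.5% of the counts in 64 seed coat libraries and 0.034% to 0.237% in the embryos. It was chosen in the libraries of the rule, many of which are among these. Outside the rule the list took 4.02% to 16.7% in 26 seed coat libraries and 0.0368% to 0.125% in 14 embryo libraries of JI64 and JI261. In 3 JI64 libraries labelled seed coat, replicate 2 at D1 and both replicates at D5, it took only 0.148% to 2.22%. A list of 50 embryo features took 2.16% to 14.2% of the counts in those 3 libraries and 0.0274% to 14.4% in the other seed coats. The highest share was in the main JI92 seed coats at D4, which the rule used, with 14.4% in both libraries against 0.550% and 0.598% at D2. The part of this in their fall after D2 was not tested. Counts in these bulk tissues cannot tell fewer cells of a type from less RNA per cell. Counts of called genes are given with and without the 3 JI64 libraries where the comparison allows it, and the part of those libraries in the results was otherwise not tested.

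In the means used by the rule, the median gene climbed from a log2(CPM + 1) of 2.69 at D1 to 4.64 at D2, then dropped to 3.02, 2.39 and 0.85 over the later stages, against 0.47 for its highest embryo stage. These values chose the genes and are a description only. The margin of D2 over the next highest stage ran from 1.03 to 3.38, with a median of 1.38. The last gene kept had a margin of 1.03 and the first left out had 1.02, so that the set has no natural edge. D3 was the next highest stage for 54 genes, D1 for 44 and D4 for 2.

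The shared mean hid different courses in the 4 accessions. In JI92 and JI1794 the median gene rose and fell steeply around D2, from 1.54 at D1 to 5.39 at D2 and 3.32 at D3 in JI92 and from 2.37 to 5.62 and 3.03 in JI1794. In Cameor the median gene was as high at D1 (4.95) as at D2 (4.91) and had dropped to 1.76 at D3. In PI358617 it stayed level at 4.03, 3.94 and 4.20 from D2 to D4 before it reached 1.05 at D5. D2 was accordingly the highest stage for 98 of the 100 genes in JI92 and 95 in JI1794, but for 41 in Cameor, where D1 was highest for 59, and for 28 in PI358617, where D3 was highest for 28 and D4 for 37. Only 13 genes had their maximum at D2 in all 4 accessions, 39 in 3 of them and 46 in 2.

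**Figure D1:**
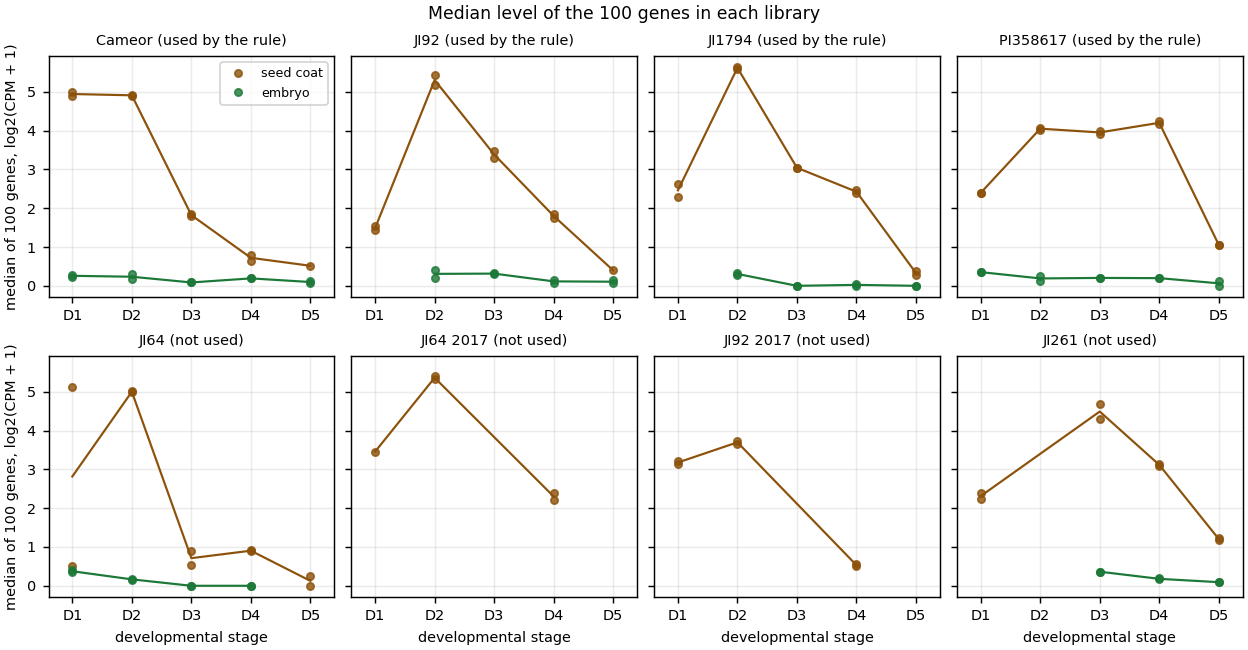
Median log2(CPM + 1) of the 100 genes in each library (points) and the mean of the library medians at each stage (lines), for seed coat and embryo, in 8 series of libraries. The seed coat medians peak at D2 in JI92 and JI1794, are already at 4.95 at D1 in Cameor, stay near 4 from D2 to D4 in PI358617, and at D1 in JI64 split into 5.13 and 0.50.

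Psat7g068160 had the largest margin, 3.38. In JI92 it was at 0.840 and 3.96 CPM at D1, 350 and 473 CPM at D2, 41.5 and 43.7 CPM at D3, and not counted at D5. In JI1794 it rose from 37.0 and 39.2 CPM at D1 to 1062 and 952 CPM at D2. In Cameor it stood at 402 and 395 CPM at D1 and 326 and 324 CPM at D2, and in PI358617 at 203 and 201 CPM at D3, above 85.3 and 78.4 CPM at D2. The stage with the highest value differed between the accessions. Psat4g125800 followed with a margin of 2.53, and its D2 values were 26.2 and 24.4 CPM in Cameor and 8.96 and 5.55 CPM in JI92. Psat0ss26165g0240 came next with a margin of 2.42 and values at D2 of 43.5 and 46.0 CPM in Cameor and 62.5 and 53.6 CPM in JI92.

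Scaled by gene length, the set ran from weakly to strongly expressed genes. As FPKM (fragments scaled by gene length and library total), averaged over the 4 accessions at D2, levels ran from 1.38 to 316 with a median of 15.0. The 9 genes above 100 FPKM were led by Psat7g068160 at 316 FPKM and Psat4g180800 at 274 FPKM, and the 10 most abundant genes made up 49.5% of the summed FPKM. The feature length implied by counts and FPKM had a median of 2760 bases, against 2730 bases over 23283 Psat features with enough counts. The genes lie in every identifier series, with 22 in Psat5g and 19 in Psat4g, where 16.1% and 12.0% of all Psat features lie. In identifier order 7 pairs lay within 10 rows of each other, of which Psat5g144600 and Psat5g144640 are direct neighbours. How many such pairs other sets of 100 Psat features hold was not tested.

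At D2 the accessions differed in level. Among the 5 accessions of the main set, JI1794 had the highest mean for 50 genes, JI64 for 20, JI92 for 15, Cameor for 9 and PI358617 for 6, and PI358617 had the lowest for 48. Of these, only JI64 was not used to choose genes high at D2. Psat4g180800 illustrates the range. It stood at 1154 and 1170 CPM in the Cameor seed coat at D2, at 116 and 152 CPM in JI92 and at 34.1 and 33.2 CPM in PI358617, but at 0.804 and 0.923 CPM in JI1794 and 0.254 and 0.370 CPM in JI64. A few genes were close to uncounted in all seed coat libraries of a series. Psat2g028400, at 474 and 545 CPM in JI92 at D2, had no count in any of the 10 seed coat libraries of the main JI64 series. It had 73 counts in the JI64 2017 library at D1. Psat5g293760, at 29.8 and 29.2 CPM in JI1794, had no count in the 10 seed coat libraries of PI358617. Psat4g058760 had no count in the seed coats of JI64, JI64 2017 or JI261. Reads were mapped to the Cameor reference, and whether reads of other accessions failed to map at such genes was not tested.

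**Figure D2:**
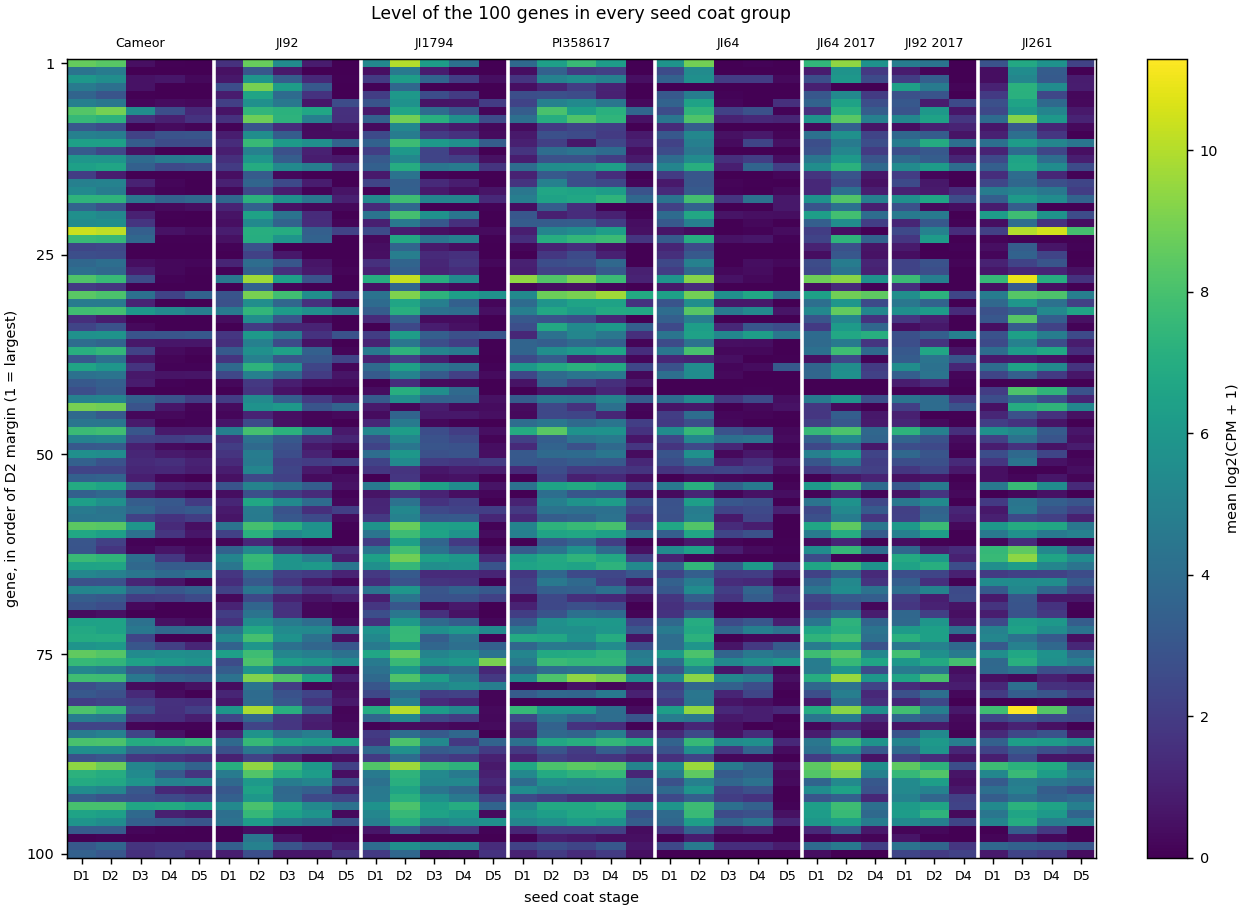
Mean log2(CPM + 1) of each of the 100 genes (rows, in order of their D2 margin) in every seed coat group (columns, by series and stage). The bright D2 columns of JI92, JI1794 and JI64 2017 contrast with the broad D2 to D4 band of PI358617 and the D1 and D2 pair of Cameor. The JI64 column at D1 averages 2 unlike libraries, with medians of 5.13 and 0.50, against 5.00 and 5.01 at D2. Dark cells across a whole series mark genes close to uncounted in it.

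The tests asked whether the peak also appears where the rule did not look. A gene was called when its adjusted p in edgeR's quasi-likelihood test, over 43670 features that passed a filter on low counts, was under 0.05. All 100 genes passed the filter.

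After D2 the genes fell in JI64. Between D2 and D3, 73 of the 100 were called higher at D2 and 0 lower, with a median log2 fold change of 4.66, where 15.1% of all features were called higher and 7.49% lower. Against D4, 65 were called higher at D2 and 0 lower, with a median of 4.32, where 7.12% of all features were called higher and 5.55% lower. Against D5, 78 were called higher and 0 lower, where 18.3% of all features were called higher and 12.1% lower. Both D5 libraries are among the 3 that stood apart, so that this last comparison has no value without them. Without those 3 libraries the counts rose to 86 higher and 0 lower against D3, where 20.2% and 12.1% of all features were called, and to 85 higher and 0 lower against D4, where 12.3% and 10.1% were called. They were 48 against D3 without D3 replicate 1, where 8.91% of all features were higher, and 40 and 38 against D4 without D4 replicates 1 and 2, where 3.85% and 3.83% were. Among the steepest drops was that of Psat7g068160, which had 490 and 443 CPM at D2 and no count in either D3 library. Counting 3 reads over the group as the floor, it was at least 19725-fold higher at D2 than at D3 (adjusted p = 0.00014, edgeR). At D1 in JI64 it had 75533 counts in replicate 1 and 122 in replicate 2, against 32765 and 32334 counts at D2. Psat4g087320 fell from a mean of 44.3 CPM at D2 to no count at D4, at least 1931-fold (adjusted p = 8.5e-10, edgeR). At D3 the median log2(CPM + 1) was 0.71, below the 1.76 to 3.94 of the 4 accessions used by the rule at that stage.

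**Figure D3:**
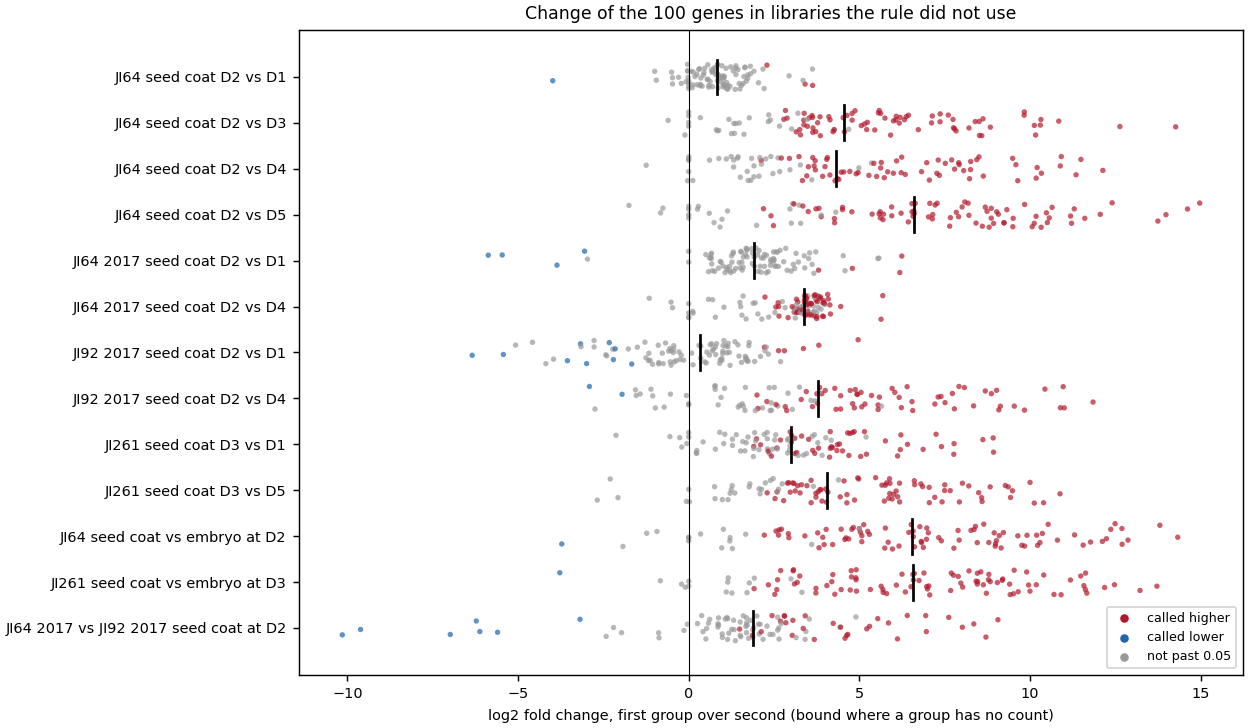
Log2 fold change of each of the 100 genes (points) in 13 comparisons among libraries the rule did not use, coloured by call, with the median as a black bar; where a group had no count the bound is plotted. The later-stage and embryo comparisons lie mostly to the right of 0, with medians of 3.39 to 6.94 before bounds are used, while the comparisons with D1 centre between 0.33 and 1.92 in JI64, JI64 2017 and JI92 2017.

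The same direction was seen in the 2017 series. In JI64 2017, 52 genes were called higher at D2 than at D4 and 0 lower, with a median log2 fold change of 3.39, where 10.9% of all features were called higher and 9.42% lower. The quartiles of the genes lay at 2.60 and 3.74, a narrow range beside the 2.13 and 8.10 of the same stages in the main JI64 series. No floor on counts was applied to these quartiles. A group without counts, or too few in both, was found for 8 genes in JI64 2017 and 20 in the main series. The part of this in the wider range was not tested. Psat7g068160 fell from 687 and 659 CPM at D2 to 52.8 and 54.5 CPM at D4 in 2017, and to 0 and 0.189 CPM at D4 in the main series. In JI92 2017, 59 genes were called higher at D2 than at D4 and 2 lower, with a median of 4.45, or 3.80 when genes without counts at D4 are set to their bound, where 11.3% of all features were called higher and 10.1% lower. The 2 lower genes were Psat5g150120, with means of 0.802 CPM at D2 and 4.74 CPM at D4 (log2 fold change -2.91, adjusted p = 0.016, edgeR), and Psat7g125680, with 9.49 CPM at D2 and 28.8 CPM at D4 (log2 fold change -1.95, adjusted p = 0.022, edgeR). In the D4 libraries of JI92 2017 the seed coat list took 4.02% and 4.27% of the counts and the 50 embryo features 12.3% and 12.0%, against 12.5% and 12.4% and 4.72% and 4.83% at D2, and the part of this in the fall was not tested. In JI64 2017 the seed coat list took 13.8% and 13.7% at D2 and 11.6% and 12.0% at D4, and the embryo features 1.55% and 1.59% at D2 and 2.47% and 2.56% at D4. Leaving out D4 replicate 1 or 2 gave 21 and 27 genes higher in JI64 2017, where 6.29% and 7.08% of all features were, and leaving out D4 replicate 2 gave 38 in JI92 2017, where 7.21% were. Without the 3 JI64 libraries, which also enter the shared estimate of the spread, 82 genes were higher at D2 and 1 lower in JI64 2017, where 15.7% and 13.6% of all features were called. In JI92 2017, 69 were then higher and 5 lower, where 15.8% and 14.5% were called.

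In all 3 of these series together, 31 genes were called higher at D2 than at D4, where 2.82% of all features were, and 61 without the 3 JI64 libraries, where 5.53% were. JI261 has no seed coat library at D2 in these data. There 80 genes had their highest mean at D3. Library medians were 4.69 and 4.29 at D3, 3.10 and 3.14 at D4 and 1.19 and 1.22 at D5. How many of all features had their highest mean at D3 was not tested, so that 80 is a description only. In the other series outside the rule, D2 was highest for 91 genes in JI64 and 90 in JI64 2017. In JI92 2017 it was highest for 50, and D1 for 45. The share of all features was not counted for these either, so that they too are descriptions only. The JI64 means include the 3 libraries that stood apart. Without those, the median log2 fold change of D2 over D1 in JI64 was -0.01, so that the 91 depends on them. In JI261, 73 genes were called higher at D3 than at D5 and 0 lower, with a median log2 fold change of 4.23, where 8.61% of all features were called higher and 9.95% lower. Without the 3 JI64 libraries, 86 were higher and 1 lower, where 13.1% and 14.6% were called, and without D5 replicate 1 or 2 there were 46 and 44 higher, where 5.26% and 5.92% were. The 50 embryo features took 0.358% and 0.291% of the counts at D3 and 7.66% and 7.40% at D5 in these seed coats, while the seed coat list took 14.5% and 13.1% and then 13.5% and 13.7%. The part of this in the fall was not tested. Psat4g125800 had 37.6 and 51.1 CPM at D3 and no count at D5, at least 1882-fold (adjusted p = 1.6e-05, edgeR).

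These 6 comparisons set D2, or D3 in JI261, against a later stage (D3, D4 and D5 in JI64, D4 in both 2017 series, D5 in JI261). In all 6, 27 genes were called, in 5 of them 21 and in none 4, where 1.37%, 2.15% and 66.8% of all features were. Without a D2 library, the JI261 comparison does not test the D2 peak itself. The 3 JI64 comparisons share their D2 libraries, and the JI64 D5 libraries are among those that stood apart. Of the 4 genes called in none, Psat5g053200 was the only one above 5 CPM in those seed coats. It had 137 and 152 CPM at D2 in JI64 and 46.7 and 55.2 CPM at D4, but 16.4 and 289 CPM at D5. In JI92 2017 it had 120 and 113 CPM at D2 and 264 and 225 CPM at D4, and in JI1794 it had 505 and 527 CPM at D5 against 225 and 174 CPM at D2. It was therefore high at a late stage in more than 1 accession, and in JI64 the D5 libraries disagreed with each other.

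The rise from D1 to D2 was less uniform than the fall. In JI64 only 3 genes were called higher at D2 than at D1 and 1 lower, where 4.22% of all features were called higher and 6.53% lower. The D1 libraries of JI64 stood far apart. Their median log2(CPM + 1) was 5.13 in replicate 1, at the level of D2 (5.00 and 5.01), and 0.50 in replicate 2, at the level of the embryos. The seed coat list took 13.1% of the counts in replicate 1 and 0.155% in replicate 2. Without the 3 libraries, the median log2 fold change from D1 to D2 was -0.01, with 3 genes called higher and 5 lower, where 3.15% and 2.52% of all features were called. With replicate 2 as the only D1 library, 82 genes were called higher and 1 lower, where 16.5% and 11.5% of all features were called.

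In JI64 2017, where D1 is a single library assumed to vary like the other groups, 93 genes had a positive log2 fold change from D1 to D2, with a median of 1.92. The test called 4 higher and 4 lower, where 0.872% and 1.26% of all features were called. Without the 3 JI64 libraries it called 54 higher and 5 lower, where 6.45% and 6.47% were called, and without either D2 library 2 higher and 1 lower, where 0.333% and 0.39% were higher and 0.289% and 0.321% lower. In JI92 2017, 9.27% of the Psat features tested were called higher from D1 to D2 and 10.6% lower. Of the 100 genes, 6 were called higher and 9 lower with a median of 0.33, near the 6.21% and 7.26% of all features called. There were 31 higher and 20 lower without the 3 JI64 libraries, where 11.8% and 12.2% were, and 1 to 4 higher and 0 to 5 lower with 1 library of JI92 2017 left out, where 3.14% to 4.1% and 3.68% to 4.66% were. Psat5g277840 stood at 207 and 204 CPM at D1 and 31.3 and 26.3 CPM at D2 in JI92 2017, while in the main JI92 series, used by the rule, it had 15.4 and 32.1 CPM at D1 and 771 and 860 CPM at D2. Psat6g093600 went the other way in JI92 2017, from 2.33 and 2.48 CPM to 74.2 and 69.4 CPM (log2 fold change 4.96 ± 1.48 SE, adjusted p = 0.033, edgeR). In JI261, 48 genes were called higher at D3 than at D1 and 0 lower, with a median of 2.99, where 4.48% of all features were called higher and 6.7% lower, and 80 higher and 0 lower without the 3 JI64 libraries, where 9.88% and 12.2% were. Without D1 replicate 1, D1 replicate 2 or D3 replicate 2 of JI261 the count was 19, 18 and 27, where 2.13%, 2% and 2.77% of all features were higher. The seed coat list took 9.35% and 9.23% of the counts at D1 in JI261 and 14.5% and 13.1% at D3, and the part of this in the rise was not tested. Psat4g180800 rose from 3.38 and 3.49 CPM at D1 to 1080 and 942 CPM at D3 in JI261 (log2 fold change 8.93 ± 0.93 SE, adjusted p = 7.2e-07, edgeR), and stayed at 1380 and 1551 CPM at D4.

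The genes with D1 as their next highest stage in the rule means and those with D3 differed in the change from D1 in series the rule did not use, and hardly in the fall from D2 to D3 in JI64. On the log2(CPM + 1) scale, the median D2 minus D1 in JI92 2017 was -0.71 for the 44 genes with D1 next and 0.67 for the 54 with D3 next. In JI64 2017 the medians were 1.17 and 1.80, and for D3 minus D1 in JI261 they were 1.39 and 2.47. The D2 minus D3 medians in JI64 were 3.58 and 3.50. The D2 minus D4 medians of the pair of classes were 3.09 and 3.08 in JI64 2017 and 1.63 and 2.66 in JI92 2017. These are descriptions without a test, since the genes share their libraries.

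**Figure D4:**
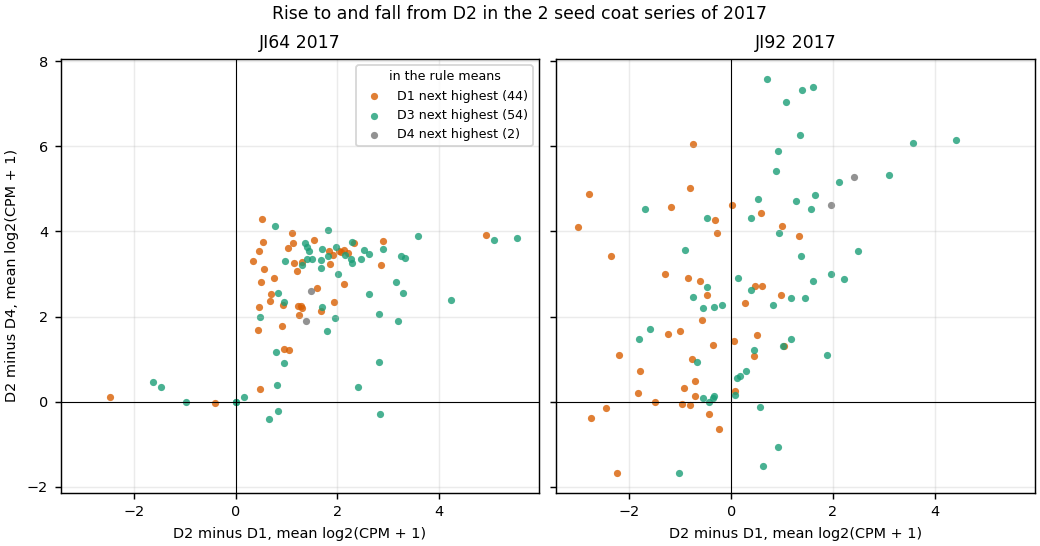
Mean log2(CPM + 1) at D2 minus D1 (horizontal) and D2 minus D4 (vertical) for each of the 100 genes in the seed coats of JI64 2017 and JI92 2017, coloured by the next highest stage in the rule means. The genes with D1 next lie mostly left of 0 in JI92 2017, with a median of -0.71, and those with D3 next mostly to its right, with a median of 0.67.

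Higher calls at D2 than at D1 alone in all 3 series were made for 2 genes, where 0.472% of all features were, and for 2 without the 3 JI64 libraries, where 1.9% were. Likewise 2 genes were called higher at D2 than at both D1 and D4 in all 3 series with a D2 sample outside the rule, as were 6 of all 43670 features, or 0.0137%. The D1 group of JI64 2017 is 1 library, and replicate 2 at D1 in JI64 is among the 3 libraries that stood apart. Without D1 replicate 1 of JI64 the count was 15, where 0.273% of all features were called, and it was 1 without either D2 library of JI64 or of JI64 2017 or either D1 library of JI92 2017, where 0.00688% to 0.0115% were. Psat5g232560 had 26.1 and 0.445 CPM at D1 in JI64, 134 and 193 CPM at D2, and 5.67 and 6.09 CPM at D4. In JI64 2017 it had 2.07 CPM at D1, 156 and 129 CPM at D2, and 7.29 and 10.9 CPM at D4. In JI92 2017 it had 6.41 and 6.48 CPM, 60.6 and 65.9 CPM, and 0.666 and 0.508 CPM. D2 was above every D1 and D4 library in each series, and the smallest of the 6 log2 fold changes was 3.36. Psat4g090160 had 101 and 3.78 CPM at D1 in JI64, 233 and 278 CPM at D2, and 0.0483 and 0.320 CPM at D4, and its smallest log2 fold change was 2.29. In JI92 2017 it rose from 7.58 and 7.44 CPM at D1 to 108 and 93.1 CPM at D2 (log2 fold change 3.81 ± 0.70 SE, adjusted p = 4.0e-04, edgeR). Without the 3 JI64 libraries the count was also 2, where 0.0922% of all features were called.

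**Figure D5:**
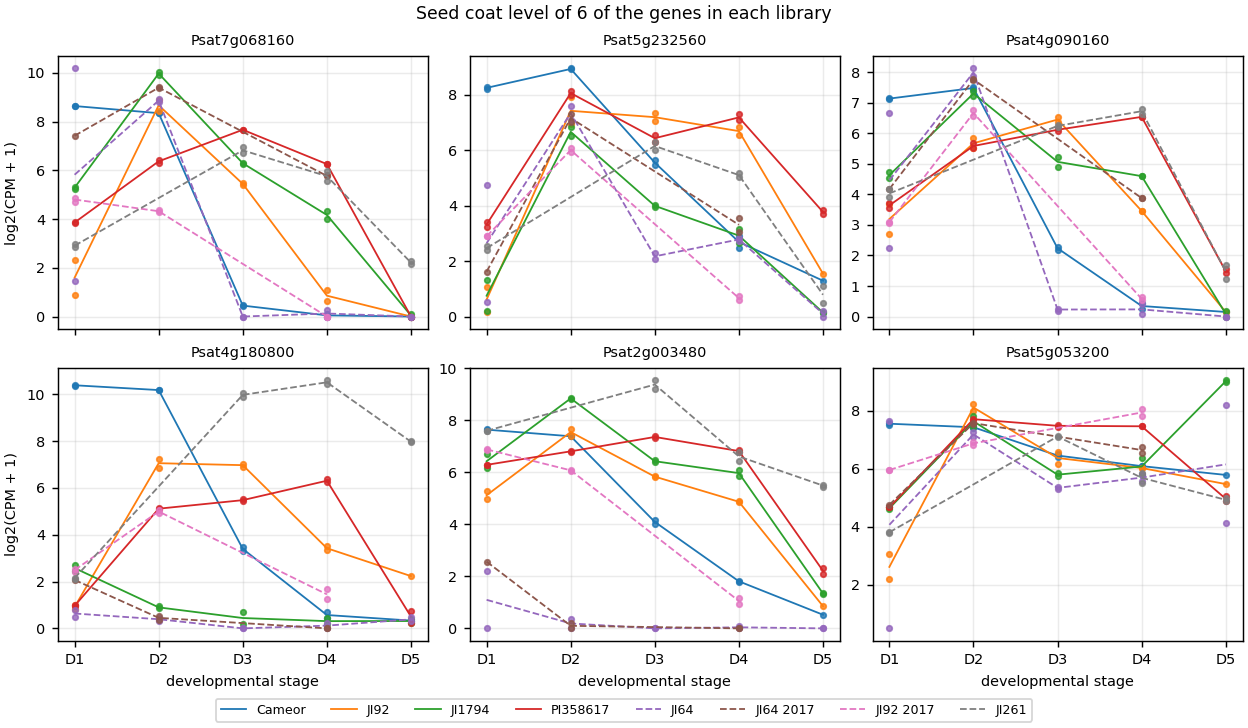
Log2(CPM + 1) in every seed coat library (points) and stage means (lines, dashed for series the rule did not use) of 6 of the genes. Psat5g232560 and Psat4g090160 peak at D2 in JI64, JI64 2017 and JI92 2017, Psat4g180800 is at 942 to 1551 CPM in JI261 at D3 and D4 but under 1 CPM in the main JI64 series, Psat2g003480 stays under 5 CPM in JI64 and JI64 2017, and Psat5g053200 is high again at D5 in JI1794.

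The seed coat bias held in embryos the rule did not use. In JI64 at D2, 84 genes were called higher and 1 lower in the seed coat against the embryo, with a median log2 fold change of 6.82, where 16.7% of all features were called higher and 8.68% lower. In JI261 at D3, 85 were called higher and 1 lower, with a median of 6.93, where 15.4% were called higher and 32.6% in either direction. Without the 3 JI64 libraries, 90 were higher and 3 lower in JI64, where 20.1% and 11.7% of all features were called, and 90 higher and 2 lower in JI261, where 17.9% and 20.6% were. Psat7g068160 had no count in the JI64 embryo at D2 and was at least 20558-fold more abundant in the seed coat (adjusted p = 0.00012, edgeR). The gene lower in the JI64 seed coat was Psat2g003480, with means of 0.150 CPM in the seed coat and 1.14 CPM in the embryo (log2 fold change -3.72, adjusted p = 0.035, edgeR). That gene was high elsewhere, at 454 and 460 CPM in the JI1794 seed coat at D2 and 740 and 591 CPM in the JI261 seed coat at D3. In JI261 the lower gene was Psat5g012640, with 0.0617 and 1.10 CPM.

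Embryos at D1 were not used by the rule either. There 30 genes reached 1 CPM in Cameor, 32 in PI358617 and 27 in JI64, and the embryo was above the seed coat of the same stage for 0, 13 and 5 genes. The PI358617 embryos at D1 stood apart, since the 50 embryo features took 0.735% and 0.739% of their counts, against at least 21.0% in every other embryo library, and the seed coat list took 0.235% and 0.237%. The JI64 seed coat mean at D1 includes replicate 2. The part of either in these counts was not tested. The highest embryo group mean of any of the 100 genes was 107 CPM, for Psat4g107320 in JI261 at D3, where its seed coat libraries had 58.0 and 34.2 CPM.

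JI64 and JI92 could be compared within the 2017 series. At D2, 31 genes were higher in JI64 and 7 in JI92, with a median log2 fold change of 1.88 for JI64 over JI92, where 14.3% of all features were called higher in JI64 and 9.31% lower. With those 3 JI64 libraries left out, 69 genes were higher and 9 lower in JI64, where 19.9% and 15.1% were called, and without either JI92 2017 library 17 were higher, where 8.48% and 8.33% were. Psat2g028400 was among the 7, with no count in JI64 2017 at D2 and a mean of 25.1 CPM in JI92 2017, at least 1135-fold (adjusted p = 6.3e-07, edgeR). The median log2(CPM + 1) at D2 was 5.32 in JI64 and 3.65 in JI92 in 2017. In the main set it was 4.95 in JI64 and 5.39 in JI92, but the rule used the JI92 libraries of that set to choose genes high at D2, so that no order is read from these values. The seed coat list took 13.8% and 13.7% of the counts in JI64 2017 at D2 and 12.5% and 12.4% in JI92 2017, and the 50 embryo features took 1.55% and 1.59% and 4.72% and 4.83%. Whether the stages of the series match was not tested.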

How the data were processed

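Read counts and FPKM were used as the authors deposited them for 117 libraries. The counts are whole numbers that were not normalized, and the deposited FPKM values are scaled by gene length and mapped total, as judged from the values. Mapping was to the Cameor v1.0 reference, per the design text, and HISAT2 2.1.0 and StringTie 2.1.0 are listed in the submitters' processing notes. No source used here gives the counting rule, the strand setting or the handling of multiple matches. Of all rows, 10 repeat an identifier, none of them among the 100 genes.

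The genes, lists and tests were chosen with earlier results of these data known. Counts of the 43 libraries not used by the rule were tested in edgeR 4.0.16 (R 4.3.3) with TMM scaling, filterByExpr by group, 1 group per tissue, accession, set and stage, trended dispersions (edgeR's GLM trend estimate, used for its speed), robust glmQLFit and two-sided glmQLFTest. P-values were adjusted by Benjamini and Hochberg over 43670 features, with a threshold of 0.05. Standard errors were taken as the log2 fold change over the square root of F. Against a group with no count, folds are lower bounds against 3 counts over the group. Among the 26925 Psat features tested, the share called higher ran from 1.35% to 26.7% over the comparisons. The features of the 300-gene seed coat list came from the accessions of the rule. The planned embryo list held only 3 features, and the list of 50 was added after seeing the data.

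Genes named were the 3 with the largest D2 margin, up to 2 in each direction per comparison by log2 fold change among those called with at least 1 CPM in the higher group, and the 4 with the largest smallest change over 6 comparisons. Psat5g277840, Psat4g180800 at D2, Psat5g053200, Psat4g107320, and those close to uncounted in a series or next to each other in identifier order were named after their values were seen.

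In simulated counts for JI64 2017 at D2 and D4, over 41596 features, the test recovered 3 of 50 features changed 2-fold, 25 of 50 changed 4-fold, 40 of 50 changed 16-fold and 49 of 50 changed 64-fold. In the 21 groups of 2 libraries that the tests used, replicates differed by more than sampling noise. Alternatives tried were DESeq2 1.42.0, limma 3.58.1 on log2-transformed FPKM (pseudocounts 1 and 0.1), RLE scaling, no filter, a replicate block, only the groups compared, a fold minimum, and leaving out libraries.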

Additional observations from a re-analysis of the deposited data

Results flagged for a closer look

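The change between stages was compared between JI64 and JI92 in the 2017 series by an interaction term in edgeR's quasi-likelihood test that was added after seeing the data. For the change from D1 to D2, 4 genes were called higher in JI64 and 2 lower, with a median difference of 1.82 on the log2 scale and 87 of 100 differences positive, where 0.511% and 0.465% of all features were called. For the difference between D2 and D4, 4 genes were called higher and 11 lower in JI64, with a median of -1.42 and 33 of 100 positive, where 6.86% and 6.61% of all features were called, so that the higher calls lay under the share of all features. No floor on counts was applied here. A group without counts, or too few in both, was found for 22 genes in JI92 2017 and 8 in JI64 2017. The order depended on the scale. With the floor, the median log2 fold changes of D2 over D4 were 3.39 in JI64 2017 and 3.80 in JI92 2017. On the log2(CPM + 1) scale the medians were 3.04 and 2.46, and with limma on log2(FPKM + 1) 2.41 and 1.62. At D4 the seed coat list took 11.6% and 12.0% of the counts in JI64 2017 and 4.02% and 4.27% in JI92 2017, and the 50 embryo features took 2.47% and 2.56% and 12.3% and 12.0%. The part of this in the difference was not tested. The D1 group of JI64 2017 is 1 library.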

How the results depend on the processing

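Without the 3 JI64 libraries, 54 genes were called higher and 5 lower from D1 to D2 in JI64 2017, 82 higher at D2 than at D4 in JI64 2017, 31 higher and 20 lower from D1 to D2 in JI92 2017, 5 lower at D2 than at D4 in JI92 2017, 80 higher at D3 than at D1 in JI261, 69 higher in JI64 than in JI92 at D2 in 2017, 5 lower from D1 to D2 in JI64, and 3 and 2 lower in the seed coat against the embryo of JI64 and JI261. The differences of change in 2017 then gave 36 higher and 5 lower for D1 to D2 and 18 higher and 35 lower for D2 against D4, where 3.77%, 3.53%, 10.9% and 12.6% of all features were called in the same order. Without only replicate 2 of JI64 at D1, an alternative added after seeing the data, 49 genes were higher from D1 to D2 and 80 higher than at D4 in JI64 2017, 23 higher and 20 lower from D1 to D2 and 4 lower than at D4 in JI92 2017, 76 higher at D3 than at D1 and 86 than at D5 in JI261, 85 higher at D2 than at D3 and 85 than at D4 in JI64, 67 higher in JI64 than in JI92 in 2017, 3 lower from D1 to D2 in JI64, and 3 and 2 lower in the seed coat against the embryo of JI64 and JI261. Of all features, that setting called 4.93% and 15.1% higher in the JI64 2017 comparisons, 10.1% higher and 11.6% lower from D1 to D2 in JI92 2017, 8.38% and 12.3% higher in those of JI261, 19.2% and 11.3% higher at D2 than at D3 and D4 in JI64, 18.9% higher in JI64 than in JI92, and 13.5%, 1.6%, 11% and 19.7% lower where lower counts are given for D2 against D4 in JI92 2017, D1 to D2 in JI64 and the seed coat against the embryo of JI64 and JI261. These fits hold fewer libraries; how each library moves the shared spread was not tested.

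With only the groups compared in the fit, 0 genes and 0% of all features were called either way from D1 to D2 in JI64, so that 0 genes were higher in all 6 comparisons with D1 and D4, a setting added for that count after seeing the data. It called 88 higher from D1 to D2 and 88 higher than at D4 in JI64 2017, 39 higher and 29 lower from D1 to D2 and 5 lower than at D4 in JI92 2017, 82 higher at D3 than at D1 in JI261, 81 higher in JI64 than in JI92 in 2017, and 2 lower in the JI64 seed coat than in its embryo. In the other comparisons named here more of all features were called than in the full set, with 15.9% and 31.1% higher in JI64 2017, 23.6% higher and 29.2% and 30.2% lower in JI92 2017, 14.7% higher in JI261, 32.5% higher in JI64 than in JI92 and 28.1% lower in the JI64 seed coat. With limma on log2(FPKM + 1) the counts were 53 higher and 0 lower from D1 to D2 in JI64, 27 and 81 higher at D2 than at D1 and D4 in JI64 2017, 14 higher and 18 lower from D1 to D2 and 1 lower than at D4 in JI92 2017, 51 higher in JI64 than in JI92 in 2017, 0 and 2 lower in the seed coat against the embryo of JI64 and JI261, and 7 higher in all 6 comparisons. Of all features it called 10% higher and 5.08% lower from D1 to D2 in JI64, 2.41% and 16.2% higher in JI64 2017, 9.91% higher and 14.5% and 10.9% lower in JI92 2017, 15.7% higher in JI64 than in JI92, 6.07% and 19.3% lower in the seed coats, and 0.0962% in all 6. With log2(FPKM + 0.1) they were 45 higher and 0 lower from D1 to D2 in JI64, 16 higher in JI64 2017, 14 lower from D1 to D2 and 1 lower than at D4 in JI92 2017, and 4 in all 6, where 8.21% of all features were higher and 3.5% lower in JI64, 1.59% higher in JI64 2017, 12.8% and 10.1% lower in JI92 2017 and 0.0366% in all 6. DESeq2 called 13 genes higher from D1 to D2 in JI64 2017, where it called 3.07% of all features, and 3 lower in the JI64 seed coat than in its embryo, where it called 12.8%, and RLE scaling 2 of the latter, where it called 10.6%. With no filter, 0 genes were lower from D1 to D2 in JI64 and 0 in the JI64 seed coat against its embryo, where 5.01% and 6.74% of all features were. The cause of these moves was not tested.

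Replicate numbers did not pair the samples: same-numbered libraries deviated together with correlations of -0.14 to 0.096 over 29 pairs of groups, none above 0.1. With the replicate number as a block, 1 gene was called higher and 0 lower from D1 to D2 in JI64 2017, where 0.305% and 0.401% of all features were, 0 lower in JI64 and 5 lower in JI92 2017, where 5.01% and 5.71% were, 13 higher in JI64 than in JI92 at D2 in 2017, where 7.4% of all features were called, 0 lower in the JI64 seed coat than in its embryo, where 7.85% were, and 0 in all 6 comparisons, where 0.00458% were.

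Leaving out 1 library of the groups compared at a time gave 2 to 82 genes higher from D1 to D2 in JI64, 82 being without replicate 1 at D1, and 0 to 3 lower, where 1.92% to 16.5% of all features were higher and 1.6% to 11.5% lower. With the share of all features called in that direction after each range, D2 in JI64 was higher for 48 to 65 genes against D3 (8.91% to 11.8%), 38 to 55 against D4 (3.83% to 4.96%) and 65 to 77 against D5 (13.7% to 16.6%). In JI64 2017 there were 2 higher (0.333% to 0.39%) and 1 lower (0.289% to 0.321%) from D1 to D2 and 21 to 43 higher than at D4 (6.29% to 7.93%). In JI92 2017 there were 1 to 4 higher (3.14% to 4.1%) and 0 to 5 lower (3.68% to 4.66%) from D1 to D2, and 38 to 54 higher (7.2% to 8.94%) and 0 to 2 lower (6.5% to 7.62%) than at D4. In JI261 there were 18 to 36 higher at D3 than at D1 (2% to 3.84%) and 44 to 68 than at D5 (5.26% to 7.34%). Seed coat over embryo gave 71 to 78 higher (11.6% to 13.9%) and 0 to 1 lower (5.39% to 6.49%) in JI64 and 68 to 77 higher (11.7% to 13.7%) and 0 to 1 lower (11.7% to 14.6%) in JI261. JI64 over JI92 in 2017 gave 17 to 23 higher (8.33% to 10.8%) and 6 lower (4.86% to 6.45%), and the count in all 6 comparisons was 1 to 15 (0.00688% to 0.273%).

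For single named genes, 408 of 468 values under the alternatives kept their direction and side of the threshold, 58 kept only the direction and 2 reversed. Leaving out 1 library gave Psat2g003480 a log2 fold change of -9.93 to 5.93 from D1 to D2 in JI64. Both reversals were Psat2g003480 from D1 to D2 in JI64, with a log2 fold change of -3.98 in the full set, 5.95 without the 3 JI64 libraries and 5.93 without D1 replicate 2, where replicate 1 has no count. Fold changes against a group with few or no counts are uncertain.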
